A study of Caenorhabditis elegans with 11 samples.

Results

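The comparison described here sets worms aged 10 days against worms aged 1 day. It was defined by the age in the sample labels, which gives 3 small RNA libraries per age, 6 of the 11 libraries of the series. Every library came from whole hermaphrodites of N2, the standard wild-type laboratory strain of the nematode Caenorhabditis elegans, and no other genotype, allele or treatment is named for either age. The labels give the age in days and not the stage at which day counting began, so the worms are called by their age alone. Reads were counted over 250 microRNA (miRNA) hairpins. Each hairpin is a folded precursor that is cut into mature miRNA, and reads from its 2 arms share 1 count. Of these, 145 had enough counts to be tested.

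miRNAs are short RNAs, loaded into Argonaute proteins, that pair with messenger RNAs and lower their translation and stability. Pairing rests mainly on the seed near the 5′ end of the miRNA, and miRNAs that share a seed form a family that can act on the same targets. In C. elegans, the founding miRNAs lin-4 and let-7 time larval development, the mir-35 family is made in oocytes and embryos, and several other miRNAs alter lifespan or the response to stress when they are lost.

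Total counts were 1414304, 1491708 and 1800586 in the 1-day libraries and 1032059, 1592781 and 1548317 in the 10-day libraries. Levels are given as counts per 1000000 counts of a library (CPM) after TMM scaling. TMM (trimmed mean of M-values) sets each library's total so that most hairpins are level. Before this scaling, 1 count was worth 0.555 to 0.969 CPM. TMM factors were 1.04 to 1.14 at 1 day and 0.869 to 0.968 at 10 days, so scaling moved with age. Scaling to total counts instead lowered the median log2 change by 0.28 and RLE factors (those of DESeq2) lowered it by 0.13. Across hairpins, Pearson correlations of log2 CPM were 0.995 to 0.997 within an age (6 pairs of libraries) and 0.958 to 0.968 between the ages (9 pairs), as a description only. The median coefficient of variation of a hairpin was 10.2% among the 1-day and 11.7% among the 10-day libraries. Nothing in the labels says that the libraries of an age were grown or collected separately. The p-values therefore rest on a spread that may be technical. A number that ends each sample's description is 1 to 3 at 1 day and 5 to 7 at 10 days. Its meaning is not given, and in these 6 libraries it cannot be told apart from age. In RNA from whole worms, fewer cells of a type and less miRNA per cell cannot be told apart, and a rise of 1 abundant hairpin lowers the share left for the others.

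Between 1 and 10 days of age, 93 of the 145 hairpins changed, or 64.1%, at an adjusted p under 0.05 in edgeR's quasi-likelihood test. Of these, 54 were higher at 10 days (37.2% of those tested) and 39 were lower (26.9%). With total-count scaling the split was 40 higher and 51 lower, and with a minimum mean of 50 CPM it was 28 higher and 34 lower. The 3 values of one age lay wholly outside those of the other for 99 hairpins (68.3%), 56 of them higher and 43 lower. The calls of larger changes depended less on the scaling. Of the 93, 46 exceeded 2-fold (26 higher, 20 lower), and 24 of those had a mean of at least 50 CPM (16 higher, 8 lower). Each of these 24 kept its call and direction in every one of the 11 other settings in which it was tested (all 11 for 22 of them, 10 for mir-1830 and 9 for mir-789-1) and with each of the 11 libraries left out in turn. The sizes of the 24 changes did move with the setting, and some rises came under 2-fold. In log2, mir-35 ranged from 0.72 to 1.12 and mir-58a from 0.88 to 1.27 over the other settings. mir-34 (1.96 to 2.36) and mir-355 (2.09 to 2.57) stayed above 2-fold. With total counts 42 calls exceeded 2-fold, and with the 50 CPM minimum 15 did. Of the 22 calls over 2-fold below 50 CPM, 7 were lost at least once, as were 30 of the 47 calls under 2-fold. Of the 52 hairpins that did not pass, 41 had a 95% confidence interval within 2-fold in either direction.

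**Figure D1:**
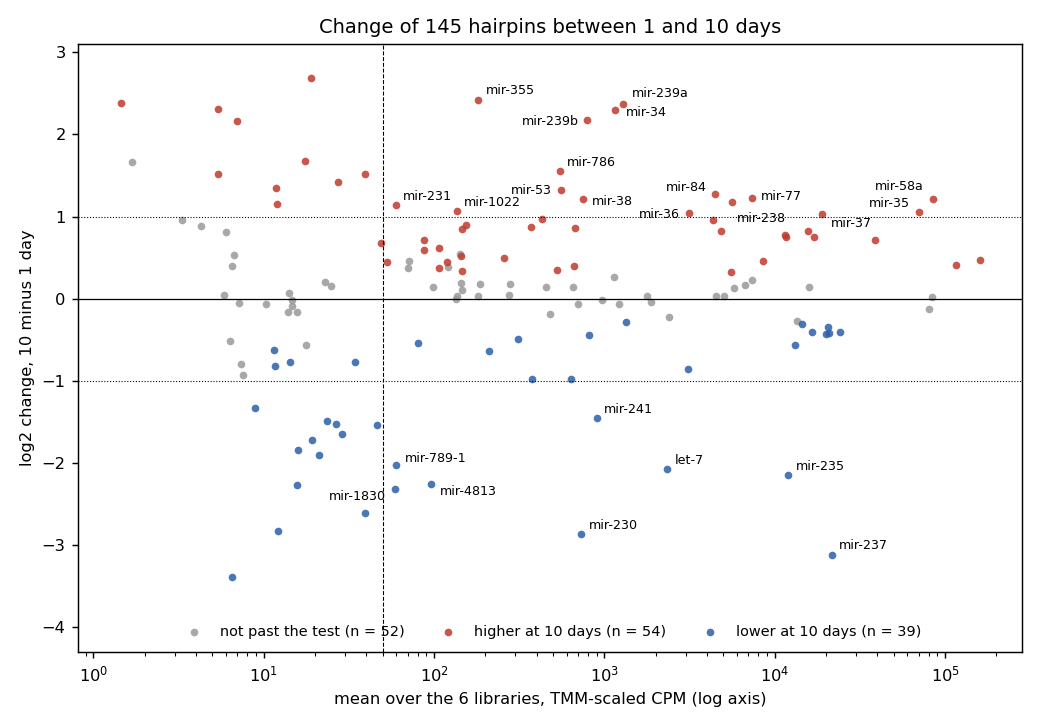
Log2 change between 1 and 10 days (vertical axis) against the mean level over the 6 libraries (horizontal axis, TMM-scaled CPM, log scale) for the 145 tested hairpins. Red and blue points passed the test as higher (54) and lower (39), grey points did not pass (52), dotted lines mark 2-fold, the dashed line marks 50 CPM, and the 24 named hairpins lie beyond both.

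The largest fall among abundant hairpins was that of mir-237, a relative of lin-4 that carries the same seed. mir-237 (chromosome X, 8154084 to 8154182, plus strand, between genes, WBcel235) stood at 38284, 39515 and 38211 CPM in the 1-day libraries and at 4736, 3896 and 4752 CPM in the 10-day libraries. It fell 8.67-fold (log2 change -3.12 ± 0.14 (SE), adjusted p = 7.43e-12), and in the order of abundance it went from rank 7 to rank 34. lin-4 itself, which ends the first larval programme by repressing lin-14, had 706, 687 and 755 CPM at 1 day and 700.1, 616 and 746 CPM at 10 days. The 2 ages overlapped for lin-4 (log2 change -0.06 ± 0.12 (SE), adjusted p = 0.720), with a 95% interval of -0.32 to 0.20. This rests on the TMM scale: lin-4 passed as lower with total counts and with the 50 CPM minimum (-0.39 to -0.34). Its mean share of counts was 0.0786% at 1 day and 0.0619% at 10 days, with no overlap. Because the seeds are the same, the ratio of lin-4 to mir-237 counts within a library, which no scaling touches, describes the makeup of this family. That ratio was 0.0184, 0.0174 and 0.0198 at 1 day and 0.148, 0.158 and 0.157 at 10 days, 8.34-fold higher (exact two-sided permutation p = 0.1, the smallest that 3 against 3 allows). This ratio and the other ratios below were chosen after their values were seen, so their p-values are descriptions only. The summed share of the family in all counts went from 4.33% ± 0.264 to 0.464% ± 0.0232 (SD, n = 3 each), with nearly all of the loss in mir-237.

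The let-7 family, whose members drive the passage from one larval programme to the next, split in direction. Of its 8 tested hairpins, 3 rose, 3 fell and 2 did not pass, with a median log2 change of 0.12 against 0.15 over all 145 hairpins. The share called was 75.0%, against 64.1% of all 145. let-7, which represses lin-41 at the larval-to-adult switch, fell from 3523, 3575 and 4259 CPM to 1051, 813 and 837 CPM (4.21-fold, log2 change -2.07 ± 0.14 (SE), adjusted p = 4.97e-10). Every 10-day library lay below every 1-day library. mir-241, which represses hbl-1 together with mir-48 and mir-84 in the second larval stage, fell from 1622, 1225 and 1116 CPM to 513, 438 and 497 CPM (2.74-fold, log2 change -1.45 ± 0.15 (SE), adjusted p = 1.76e-07). mir-793 fell from 254 ± 6.97 to 164 ± 16.9 CPM (log2 change -0.64 ± 0.13 (SE), adjusted p = 0.000310). The partners of mir-241 went the other way. mir-84 rose 2.41-fold, from 2887, 2553 and 2454 CPM to 7614, 4938 and 6491 CPM (log2 change 1.27 ± 0.16 (SE), adjusted p = 2.18e-06). mir-48, the most abundant of the family, rose from 12815, 12229 and 13228 CPM to 21564, 20036 and 22858 CPM (log2 change 0.75 ± 0.11 (SE), adjusted p = 8.82e-06), and its call was kept under every alternative. mir-795 had a log2 change of 0.37 (adjusted p = 0.0400), with overlapping ages, and lost its call in 9 of 11 other settings and in 9 of 11 fits with 1 library left out (0.15 to 0.52). mir-794 (0.19) and mir-1821 (0.05) did not pass.

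mir-48 and mir-241 lie in a cluster on chromosome V (14364412 to 14366283, minus strand, between genes), so their opposite movement can be read within each library. The ratio of mir-48 to mir-241 counts was 7.90, 9.99 and 11.9 at 1 day and 42.0, 45.8 and 46.0 at 10 days, 4.56-fold higher with no overlap (exact permutation p = 0.1, the smallest possible). For mir-84 against let-7 the ratio was 0.819, 0.714 and 0.576 at 1 day and 7.25, 6.08 and 7.75 at 10 days, 10.0-fold higher (exact p = 0.1). The ratio thus lay under 1 in each 1-day library and over 1 in each 10-day library. The family as a whole held 2.31% ± 0.0721 of counts at 1 day and 2.67% ± 0.0847 at 10 days. Over the 6 developmental timing miRNAs (lin-4, let-7, mir-48, mir-84, mir-241 and mir-237), 2 rose, 3 fell and lin-4 did not pass. The share called was 83.3%, against 64.1% of all 145.

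The 3 hairpins of the mir-238 family all rose, beside 37.2% of all 145, and no setting changed that. In C. elegans, loss of mir-238 has been reported to shorten life and loss of the mir-239 locus to lengthen it. mir-239a rose 5.16-fold, from 419.7, 369.8 and 456 CPM to 2128, 2674 and 1619.7 CPM (log2 change 2.37 ± 0.19 (SE), adjusted p = 9.18e-09). mir-239b, its neighbour on the other strand of chromosome X, rose 4.53-fold, from 314, 275 and 276 CPM to 1238, 1721 and 953 CPM (log2 change 2.18 ± 0.24 (SE), adjusted p = 4.77e-07). The 10-day libraries kept the same order for both hairpins, with replicate 2 highest and replicate 3 lowest. The ratio of mir-239a to mir-239b was 1.34, 1.35 and 1.65 at 1 day and 1.72, 1.55 and 1.70 at 10 days (exact permutation p = 0.2). mir-238 rose 2.27-fold, from 3568, 3312 and 3391 CPM to 8099, 6797 and 8399 CPM (log2 change 1.18 ± 0.12 (SE), adjusted p = 1.75e-07), and remained the most abundant of the 3.

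mir-34, conserved in animals and known from the response to DNA damage and other stress, rose as steeply. It lies between genes on chromosome X (2969752 to 2969848, minus strand) and rose 4.90-fold, from 369.8, 373 and 431 CPM to 2233, 1759 and 1772 CPM (log2 change 2.29 ± 0.15 (SE), adjusted p = 4.88e-10). Every 10-day library lay far above every 1-day library. Among the 11 hairpins listed as affecting lifespan, 6 rose, 1 fell and 4 did not pass. The share called, 63.6%, was near the 64.1% of all 145, and the median log2 change was 0.46 against 0.15. mir-246 rose from 7134 ± 301 to 9843 ± 385 CPM (log2 change 0.46 ± 0.11 (SE), adjusted p = 0.00120), a call lost in 3 of the other settings (total counts, the 50 CPM minimum and a fit of these 2 ages alone). mir-83, a relative of vertebrate miR-29, rose from 492, 488 and 447 CPM to 972, 840.5 and 783 CPM (log2 change 0.86 ± 0.21 (SE), adjusted p = 0.00175), a call lost without replicate 1 of the 10-day group (0.64) and with a minimum of 50 CPM (0.53). let-7 was the member that fell. mir-71, which extends life and acts from neurons on the intestine, had 6508, 6117 and 6187 CPM at 1 day and 7930.5, 6630.4 and 6607 CPM at 10 days (log2 change 0.17 ± 0.11 (SE), adjusted p = 0.200). Its ages did not overlap, but the difference did not pass, with an interval of -0.07 to 0.41. mir-80, mir-228 and lin-4 were the other members that did not pass. Total counts gave 5 higher and 4 lower on this list.

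**Figure D2:**
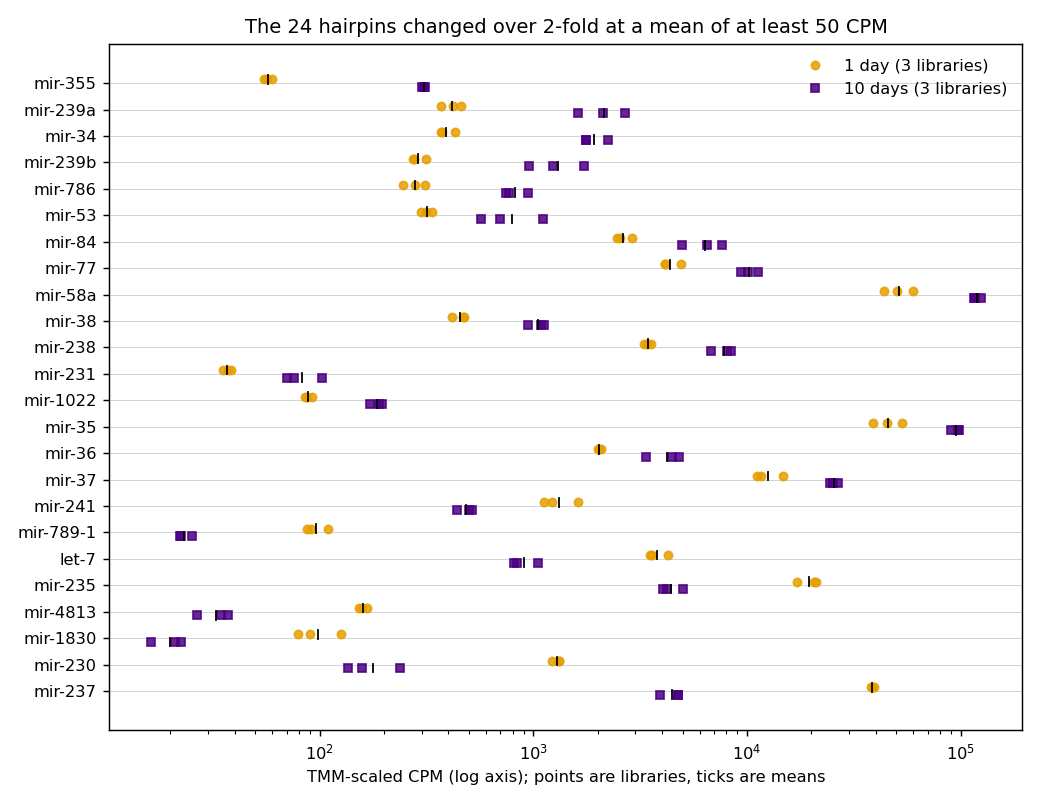
Level of each of the 24 hairpins changed over 2-fold with a mean of at least 50 CPM (horizontal axis, TMM-scaled CPM, log scale), ordered by log2 change. Circles are the 3 libraries at 1 day, squares the 3 at 10 days and ticks the means. The 2 ages do not overlap for any of the 24, which were chosen by their change in these libraries. Of all 145 hairpins, 68.3% do not overlap.

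The mir-35 family, which is needed for embryonic viability and is known as a marker of oocytes and embryos, took a larger part of the libraries at 10 days. Its 8 hairpins together held 17.4, 17.7 and 21.4% of counts in the 1-day libraries and 24.1, 25.7 and 25.6% in the 10-day libraries, a gain of 6.31 points with no overlap (exact permutation p = 0.1, the smallest possible). Of the 8 members, 7 rose (87.5% called, against 64.1% of all 145), and 6 did with RLE or total-count scaling and 8 with upper-quartile scaling. The median log2 change was 1.00, against 0.15 over all 145 hairpins, and mir-41 was the member that did not pass. mir-35 lies antisense to Y62F5A.9, inside one of its introns, on chromosome II (11537608 to 11537704). It rose 2.07-fold, from 38854, 45367 and 53367 CPM to 90276, 97991 and 96927 CPM (log2 change 1.05 ± 0.13 (SE), adjusted p = 1.34e-06). mir-38 rose 2.31-fold, from 469.6, 417 and 474 CPM to 1083, 1123 and 944 CPM, and mir-36 and mir-37 rose by 1.05 and 1.03 on the log2 scale. mir-42, which lies farther along the chromosome, rose by 0.97, and mir-39 by 0.83.

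mir-40, the most abundant of the mir-35 cluster, moved least. It had 91829, 84962 and 122464 CPM at 1 day and 134902, 117265 and 144605 CPM at 10 days (log2 change 0.41 ± 0.13 (SE), adjusted p = 0.00960), so the ages overlapped. Its call was lost in 7 of 11 other settings and in 6 of 11 fits with 1 library left out, where it ranged from 0.16 to 0.58. The 6 were those without replicate 1 or 2 at 1 day, replicate 1 or 3 at 10 days, or either library at 20 days. Within libraries, mir-35 was 0.423, 0.534 and 0.436 of mir-40 at 1 day and 0.669, 0.836 and 0.670 at 10 days, 1.56-fold higher (exact p = 0.1). mir-41 had 60.0, 64.7 and 55.5 CPM at 1 day and 83.0, 92.7 and 70.6 CPM at 10 days (log2 change 0.45 ± 0.21 (SE), adjusted p = 0.0603). What part embryos or oocytes carried by the worms had in these levels was not tested.

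The mir-58 family, related to bantam of Drosophila and needed for normal body size and egg laying, made up the largest share of counts at both ages. It held 30.9, 32.6 and 32.6% at 1 day and 36.6, 37.0 and 36.5% at 10 days, a gain of 4.65 points (exact p = 0.1). The largest single gain was that of mir-58a, in an intron of Y67D8A.2 on chromosome IV (3233254 to 3233350, plus strand). mir-58a rose 2.32-fold, from 44007, 50107 and 59539 CPM to 124491, 117355 and 114930.3 CPM (log2 change 1.22 ± 0.13 (SE), adjusted p = 3.67e-07), and from 5.61% ± 0.645 to 10.8% ± 0.698 of counts. mir-82, the most abundant hairpin at both ages, rose from 133580.5 ± 12853 to 185214 ± 12913 CPM (log2 change 0.47 ± 0.11 (SE), adjusted p = 0.000851), a call lost with total-count scaling and with a minimum of 50 CPM. mir-80 had 87465, 80717 and 80983 CPM at 1 day and 88194, 75973 and 89055 CPM at 10 days (log2 change 0.02 ± 0.10 (SE), adjusted p = 0.867). The ratio of mir-58a to mir-80, members with the same seed, was 0.503, 0.621 and 0.735 at 1 day and 1.41, 1.54 and 1.29 at 10 days, 2.31-fold higher (exact p = 0.1). mir-81 fell from 23829 ± 1556 to 17879 ± 1098 CPM (log2 change -0.41 ± 0.11 (SE), adjusted p = 0.00347), except with upper-quartile scaling. mir-2209a rose by 0.59, a call lost with the 50 CPM minimum (0.26), and mir-58b, at a mean of 8.75 CPM at 1 day, did not pass.

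**Figure D3:**
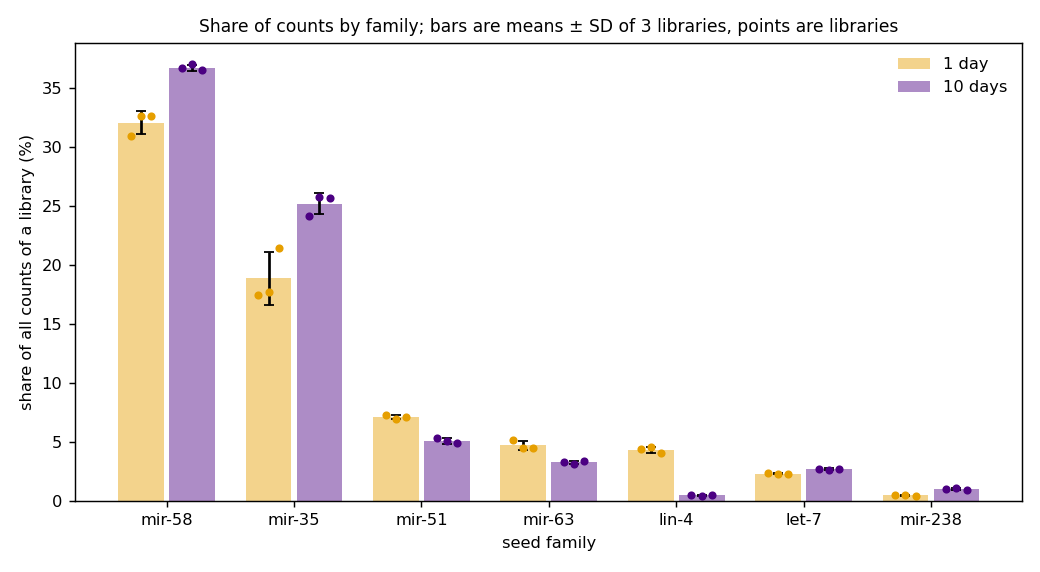
Share of all counts of a library held by the 7 seed families followed in full (vertical axis, percent), with bars for the mean of 3 libraries at 1 day (yellow) and 10 days (purple), SD as error bars and libraries as points. The mir-58 family (32.0% and 36.7%) and the mir-35 family (18.8% and 25.2%) were largest at both ages, and the lin-4 family went from 4.33% to 0.464%.

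Ordered by the mean difference in share of counts, 5 hairpins stood at each end. mir-58a gained 5.14 points and mir-35 gained 3.58, followed by mir-82 (2.05), mir-72 (1.13) and mir-40 (1.01). Except for mir-40 (exact p = 0.4), their ages did not overlap. mir-237 lost most, from 4.28, 4.51 and 3.98% to 0.415, 0.377 and 0.413% of counts. mir-228, found in glia, had 10.2, 10.1 and 7.54% at 1 day and 7.24, 6.88 and 6.64% at 10 days, yet its TMM-scaled level had overlapping ages and did not pass (log2 change -0.13 ± 0.13 (SE), adjusted p = 0.418). mir-235 changed by -1.75 points, mir-80 by -1.53 and mir-70 by -1.16. The 10 hairpins with the highest mean over the 6 libraries held 67.7% of counts at 1 day and 70.8% at 10 days. This set is the same at both ages and includes mir-237 and mir-81. Ranked at each age alone, mir-237 and mir-81 left the first 10 by 10 days. In their place, mir-37 (rank 20 to rank 8) and mir-48 (rank 19 to rank 9) entered.

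The other seed families with several tested members mostly moved in part. In the mir-51 family, related to vertebrate miR-100 and needed in embryos, 1 of 6 rose, 2 fell and 3 did not pass. mir-53 rose 2.49-fold, from 298, 315 and 337 CPM to 1110.5, 571 and 697 CPM (log2 change 1.32 ± 0.21 (SE), adjusted p = 2.19e-05), with replicate 1 above the other 10-day libraries. The far more abundant mir-51 and mir-55 fell by 0.43 and 0.56 on the log2 scale, calls kept in every setting. As a share of counts the family went from 7.09% ± 0.190 to 5.08% ± 0.246. In the mir-63 family, mir-66 rose from 3496 ± 119 to 6196 ± 839 CPM (log2 change 0.83 ± 0.12 (SE), adjusted p = 1.13e-05) and mir-63 by 0.35, while mir-229, mir-65 and mir-64 fell by 0.86, 0.40 and 0.31. The small changes of this family lost their calls in some settings (mir-63 in 6 of 11, mir-64 and mir-65 in 1 each), whereas those of mir-66 and mir-229 did not. With 1 library left out, mir-63 ranged from 0.15 to 0.41 and lost its call in 4 of 11 fits (replicate 2 at 1 day, replicate 1 at 10 days or either at 20 days left out). mir-64 ranged from -0.51 to -0.24 and lost its call in 3 (replicate 3 at 1 day, replicate 3 at 5 days or replicate 2 at 10 days). The share of the family went from 4.69% ± 0.382 to 3.25% ± 0.127.

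mir-44 and mir-45, of near-identical counts (ratios 0.990 to 1.03), cannot be told apart here. In the main fit they rose by 0.75 and 0.77 on the log2 scale. Summed in a separate fit, whose median log2 change moved by -0.16, they had a log2 change of 0.60 ± 0.11 (SE, adjusted p = 0.000318). mir-61 of the same family, which acts in the vulva, did not pass in the main fit (0.23). In the mir-72 family, mir-72 rose from 29269 ± 1133 to 48229 ± 4146 CPM (log2 change 0.72 ± 0.12 (SE), adjusted p = 3.92e-05), mir-74 fell from 498 ± 12.6 to 254 ± 23.8 CPM (log2 change -0.97 ± 0.12 (SE), adjusted p = 2.18e-06) and mir-73 did not pass (0.03). In the mir-2 family, mir-43 and mir-250 passed as higher and mir-797 as lower, but the first pair lost their calls in 8 of 11 other settings each, and in 6 and 5 fits with 1 library left out (0.30 to 0.52 and 0.17 to 0.48). mir-797 did not pass without replicate 2 at 10 days (-0.85), nor did mir-50 (-0.31). With the number ending the sample descriptions as a fixed term, mir-797 lost its call too (-0.84). mir-50 fell by 0.44, a call lost with the fixed term for the number ending the sample descriptions (-0.32). Its relative mir-62 did not pass, nor did mir-90 (-0.27), which was called lower in 8 of 11 other settings and 6 of 11 fits with 1 library left out (-0.61 to -0.35 where called). mir-75 and mir-79 rose by 0.90 and 0.49, and the call of mir-79 was lost in 3 other settings (total counts, the 50 CPM minimum and the 2 ages alone, 0.16 to 0.35). Of the remaining pairs, mir-251 and mir-252 passed as higher (1.52 and 0.72, calls lost in 1 and 2 other settings), mir-46 as lower (-0.28, a call lost in 2 other settings and without replicate 3 at 1 day or replicate 2 or 3 at 10 days) and mir-47 not at all. mir-233 passed as higher and mir-87 did not, mir-232 passed as higher and mir-357 as lower, and mir-83 passed as higher and mir-49 did not. mir-233 lost its call in 9 of 11 other settings and in 8 of 11 fits with 1 library left out (0.12 to 0.59). The call of mir-232 was lost with total counts (0.40). mir-251 and mir-252 did not pass without replicate 2 at 1 day or replicate 1 at 10 days, nor mir-251 without replicate 3 at 10 days, and their ranges were 0.93 to 1.85 and 0.32 to 0.86.

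**Figure D4:**
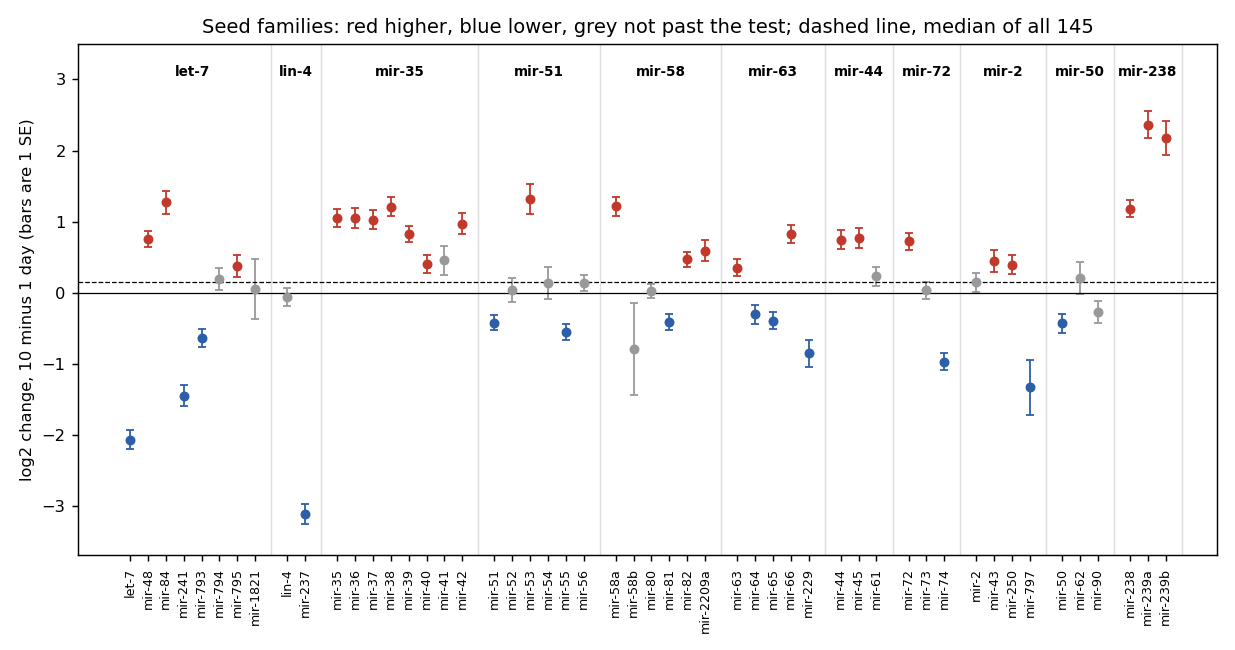
Log2 change between 1 and 10 days (vertical axis, bars are 1 SE) for the tested hairpins of 11 seed families. Red points passed as higher, blue as lower and grey did not pass; the dashed line is the median of all 145 hairpins (0.15), the mir-238 family lies wholly above it and the let-7 and mir-63 families reach to both sides.

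Of 8 hairpins known from 1 tissue, 2 rose, 1 fell and 5 did not pass, or 37.5% called against 64.1% of all 145. The number that fell ranged from 0 with upper-quartile scaling to 4 with total-count scaling. mir-786, an intestinal miRNA that sets the defecation rhythm, rose 2.94-fold, from 312, 246 and 279 CPM to 939, 748 and 773 CPM (log2 change 1.55 ± 0.14 (SE), adjusted p = 3.59e-08). mir-240, of the same cluster, rose from 3684, 3048 and 2149 CPM to 5761, 5183 and 6303 CPM (log2 change 0.96 ± 0.21 (SE), adjusted p = 0.000694). mir-60, another intestinal miRNA, had 1754 ± 215 CPM at 1 day and 1799 ± 228 CPM at 10 days (log2 change 0.04 ± 0.15 (SE), adjusted p = 0.865). The muscle miRNA mir-1 had 453, 496 and 579.6 CPM at 1 day and 519.8, 473 and 359 CPM at 10 days (log2 change -0.18 ± 0.18 (SE), adjusted p = 0.419). It was called lower with total counts and with the 50 CPM minimum (-0.51 to -0.45). Among neuronal hairpins, mir-124 had 21, 23 and 28 counts at 1 day and 9, 12 and 13 at 10 days (log2 change -0.63 ± 0.26 (SE), adjusted p = 0.0460), a call lost in 4 of 10 other settings and without replicate 3 at 1 day or replicate 2 or 3 at 10 days (range -0.82 to -0.51). lsy-6, which sets the asymmetry of a pair of taste neurons, had 36, 32 and 42 counts at 1 day and 13, 27 and 15 at 10 days (log2 change -0.56 ± 0.25 (SE), adjusted p = 0.0603). It did not pass, but was called lower in 5 of 10 other settings and 5 of 11 fits with 1 library left out (-0.83 to -0.62 where called), and mir-791 (0.16) did not pass.

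Of 10 hairpins conserved between worm and vertebrates, mir-34 and mir-83 rose, let-7, mir-235, mir-51 and mir-124 fell, and lin-4, mir-1, mir-236 and mir-228 did not pass. The share called was 60.0%, against 64.1% of all 145. mir-236 was called lower in 6 of 11 other settings and 6 of 11 fits with 1 library left out (-0.55 to -0.29 where called). On total counts, 8 of the 10 were lower. mir-235, a relative of vertebrate miR-92 that holds blast cells quiescent in starved larvae, fell 4.42-fold, from 20572, 17166 and 20961 CPM to 4201, 4027 and 5037 CPM (log2 change -2.15 ± 0.15 (SE), adjusted p = 1.15e-09). The 3 tested mirtrons, whose hairpins are freed by splicing, went 3 ways. mir-1018 rose from 38, 36 and 28 counts to 67, 74 and 72 counts (log2 change 1.52), mir-1020 fell from 47, 38 and 42 to 7, 14 and 5 counts (-1.84), and mir-62 did not pass (0.21). The call of mir-1020 was lost with the number ending the sample descriptions as a fixed term (-1.42). The annotation used here places mir-1018 between genes.

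Several of the largest changes were in hairpins outside these lists. mir-230 (chromosome X, 5803892 to 5803989, plus strand, between genes) fell 7.27-fold, from 1322, 1228 and 1321 CPM to 158, 136 and 237 CPM (log2 change -2.86 ± 0.19 (SE), adjusted p = 6.54e-10). mir-4813, which overlaps an exon of idhg-1 on the same strand of chromosome III, fell 4.77-fold, from 167, 157 and 153 CPM to 26.5, 34.4 and 37.1 CPM (log2 change -2.25 ± 0.14 (SE), adjusted p = 4.88e-10). Whether its counts hold fragments of the idhg-1 transcript was not tested. mir-1830, in an intron of paic-1, fell 4.97-fold, from 125, 90.0 and 79.5 CPM to 21.0, 16.2 and 22.3 CPM (log2 change -2.31 ± 0.22 (SE), adjusted p = 5.65e-08). The 2 copies of mir-789 fell by 2.03 and 2.61 on the log2 scale. Reads could be split between them, and their sum fell by 2.40 in the separate fit of summed copies, whose median moved by -0.16.

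mir-355 rose 5.36-fold, the most of any hairpin above a mean of 50 CPM. It lies between genes on chromosome II (11833536 to 11833645, minus strand) and had 56.9, 54.7 and 59.7 CPM at 1 day and 311, 309 and 301 CPM at 10 days (log2 change 2.42 ± 0.14 (SE), adjusted p = 1.02e-10). The spread within an age was small beside the gap between ages. mir-77 rose 2.34-fold, from 4113, 4134 and 4900.4 CPM to 11283, 9374 and 10089.7 CPM (log2 change 1.23 ± 0.12 (SE), adjusted p = 1.26e-07). mir-231 rose 2.20-fold, from 35.4, 37.0 and 38.4 CPM to 103, 70.0 and 75.8 CPM, and mir-1022 rose 2.09-fold, from 92.3, 87.0 and 85.3 CPM to 195, 171 and 189 CPM.

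Under a mean of 50 CPM, 27 of 47 hairpins passed, beside 93 of all 145 (64.1%), and 8 of the 27 had a fitted log2 change of at least 2. Their counts are small, so the counts themselves are given. mir-2208a had 5, 10 and 11 counts at 1 day and 31, 51 and 42 at 10 days (log2 change 2.68 ± 0.26 (SE), adjusted p = 6.57e-08). mir-8201 went from 5, 3 and 5 counts to 9, 20 and 15, mir-5594 from 0, 4 and 5 to 9, 13 and 12, and mir-4807 from 1, 0 and 1 to 3, 2 and 4. The counts of mir-4807 lie about the limit of 3 that a count of 0 allows, so no fold is given, and its call was lost in 2 of 9 other settings and 4 of 11 fits with 1 library left out. In the other direction, mir-788 had 35, 40 and 34 counts at 1 day and 3, 5 and 3 at 10 days (log2 change -2.83 ± 0.33 (SE), adjusted p = 8.91e-07). mir-799 went from 18, 22 and 21 counts to 2, 0 and 2, mir-1817 from 41, 47 and 45 to 6, 10 and 4, and mir-789-2 from 110, 122 and 118 to 9, 16 and 17. The call of mir-799 was lost with the number ending the sample descriptions as a fixed term (-3.53). In each of the 8, chosen by their change, the 2 ages did not overlap, as in 68.3% of all 145.

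Against this, some abundant hairpins were nearly level. Above a mean of 1000 CPM, mir-80, mir-73, mir-52, mir-60 and mir-245 had the smallest log2 changes. mir-73 had 4661, 4252 and 4458 CPM at 1 day and 4832, 4189 and 4623 CPM at 10 days, with an interval of -0.23 to 0.29 on the log2 scale. mir-245 had an interval of -0.29 to 0.21, mir-52 of -0.32 to 0.38, mir-60 of -0.27 to 0.34 and mir-80 of -0.20 to 0.24. These levels are relative to the TMM scale: with total counts mir-80 and mir-73 passed as lower, at -0.26 each. mir-245 also passed as lower with total counts and with the 50 CPM minimum (-0.37 to -0.33). mir-52 passed as higher (0.57) with the number ending the sample descriptions as a fixed term.

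The genome places many of these hairpins side by side, and neighbours did not always move together. Within 10000 bases on 1 strand, 18 clusters held 49 of the tested hairpins. Over all 145 tested hairpins, 37.2% passed as higher and 26.9% as lower. In 3 clusters every tested member passed in 1 direction, in 9 some did, in 4 members passed in both directions and in 2 none passed. The 3 were mir-42 with mir-43 and mir-44 (higher), mir-240 with mir-786 (higher) and mir-357 with mir-358 (lower, by 1.90 and 1.49 in log2, in an intron of symk-1 on the other strand). The call of mir-43 among these was lost in 8 of 11 other settings. The 4 mixed clusters were mir-48 with mir-241, mir-51 with mir-53, mir-73 to mir-75, and mir-229 with mir-64 to mir-66 in an intron of gcn-1. Within libraries the ratio of mir-66 to mir-229 was 0.759, 0.851 and 1.09 at 1 day and 2.87, 3.14 and 2.56 at 10 days (3.20-fold higher). For mir-53 to mir-51 it went from 0.0133, 0.0148 and 0.0133 to 0.0635, 0.0338 and 0.0410 (3.23-fold higher), and for mir-75 to mir-74 it went from 0.213, 0.213 and 0.220 to 0.636, 0.860 and 0.872 (3.63-fold higher). Each had an exact permutation p of 0.1, the smallest possible, and none of the 3 overlapped. These 3 ratios were chosen after the opposite calls were seen, so they describe those calls and do not test them anew. For mir-786 to mir-240, where both rose, the ratio was 0.0846, 0.0806 and 0.130 at 1 day and 0.163, 0.144 and 0.123 at 10 days, with overlapping ages (exact p = 0.2). The clusters with no member passing were mir-2 with mir-71 and mir-228 with mir-790.

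**Figure D5:**
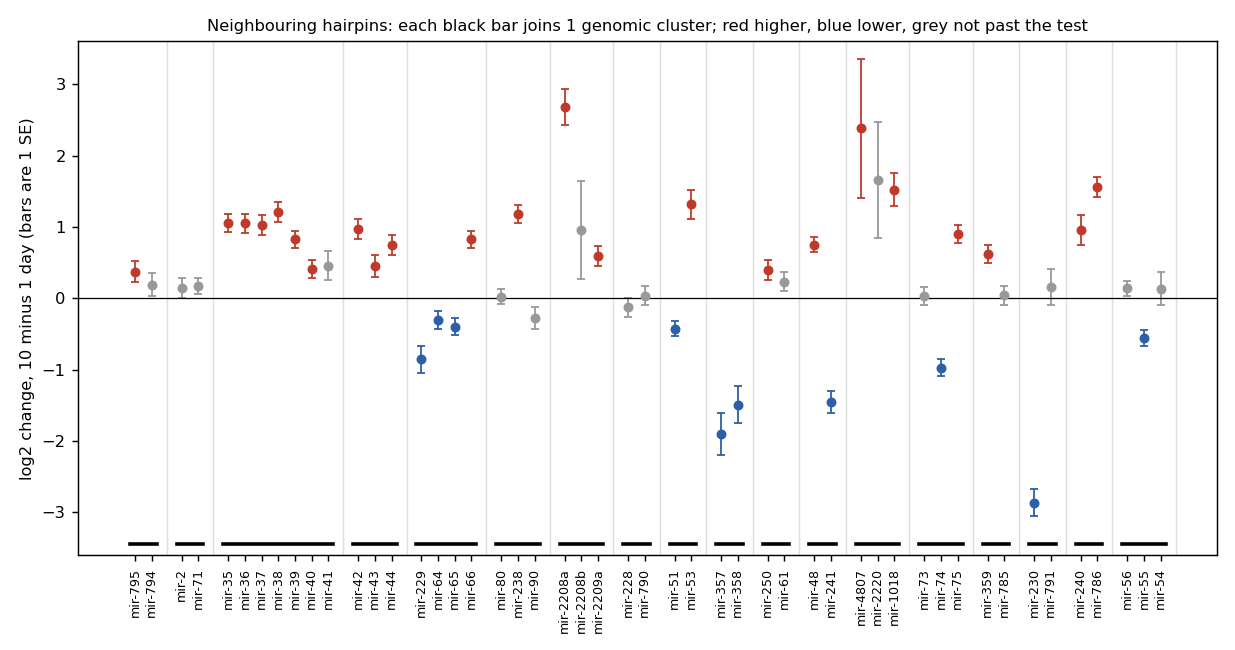
Log2 change between 1 and 10 days (vertical axis, bars are 1 SE) for the 49 tested hairpins of 18 genomic clusters, with a black bar under each cluster. Red points passed as higher, blue as lower and grey did not pass; 4 clusters hold both red and blue points.

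By chromosome, the tested hairpins on II had the highest median log2 change, 0.72 over 25 hairpins, with 16 higher and 3 lower (76.0% called). Those 25 include the mir-35 to mir-41 cluster and mir-42 to mir-45. Chromosome X, with 47 tested hairpins, had 18 higher and 13 lower (66.0% called), and III, with 18, had 4 higher and 8 lower (66.7% called). Of 86 hairpins between genes, 36 passed as higher and 19 as lower, and of the 34 in introns of genes on the same strand 8 and 12 did. The shares called were 64.0% and 58.8%, beside 64.1% of all 145. These counts are descriptions, since neighbours may share transcripts, which was not tested, and no test of place was made.

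The 5-day libraries show how much of the difference was present earlier. Between 5 and 10 days, 54 of the 145 hairpins passed (37.2%), 42 higher and 12 lower, a split that turned to 25 higher and 29 lower with total-count scaling. The 10-day libraries enter this comparison and the one against 1 day alike. mir-237 stood at 14306 ± 2396 CPM at 5 days, between its 1-day and 10-day levels, and fell by 1.68 on the log2 scale from 5 to 10 days (adjusted p = 7.15e-08). mir-230 had 466 ± 59.4 CPM at 5 days and fell by 1.39 (adjusted p = 2.61e-05). mir-241 and mir-4813 stood at 485 ± 27.1 and 37.3 ± 3.68 CPM at 5 days, and their later changes of -0.01 and -0.16 did not pass. mir-34 rose by 1.14 from 871 ± 99.2 CPM at 5 days (adjusted p = 1.47e-05), and mir-786 by 0.98 from 415 ± 50.4 CPM. mir-77 stood at 8856 ± 592 CPM at 5 days, with a later change of 0.21 that did not pass.

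At 20 days, where there are 2 libraries, some of the 10-day levels were not the end point. mir-237 had 1284 and 1545 CPM, let-7 had 259 and 282 CPM and mir-241 had 132 and 168 CPM, all below their 10-day values. mir-239b had 4888 and 8239 CPM and mir-34 had 3698 and 2981 CPM, all above theirs. mir-58a, with 61358 and 48834 CPM, and mir-77, with 4799 and 4272 CPM, were nearer to their 1-day than to their 10-day levels. mir-230 had 432 and 297 CPM, above all 3 of its 10-day values. These 20-day values are a description, with no test made here.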

How the data were processed

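Per the labels' protocols, libraries of whole N2 hermaphrodites were built with the TruSeq kit for small RNA. What the authors deposited is 1 raw, unnormalized count of reads per hairpin name and library. Per the submitters' processing notes, BWA 0.7.12-r1039, SAMtools 1.3.1-9, CASAVA 1.8.4 and Trimmomatic 0.36 took part. The sources used here give neither the reference or genome build nor the rule by which reads were assigned to hairpins.

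The analysis ran in R 4.3.3. filterByExpr of edgeR 4.0.16 (minimum count 10, minimum total 15) left 145 of 250 hairpins with 99.99% of counts, and the 105 others had at most 12 counts in any of the 6 libraries. All 11 libraries were fitted with age as a factor and TMM scaling, so the 5 libraries of the other ages entered the estimate of spread and the TMM scaling (biological coefficient of variation 12.5%). Quasi-likelihood tests of 10 against 1 day and 10 against 5 days were adjusted by Benjamini-Hochberg over the 145, with a threshold of 0.05. Log2 changes used a prior count of 0.125, and each SE is the unshrunk change over the root of its F. Shares and ratios within libraries were compared by exact two-sided permutation. On simulated counts for 10 against 1 day, 20 of 20 changes of 2-fold and 20 of 20 of 4-fold were called. Of 105 unchanged hairpins, 1 was called. Of the 145 simulated hairpins, 142 were tested. The simulation left 105 of the 145 unchanged, whereas 93 of 145 were called in the data. Its rates therefore need not hold for the data.

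Hairpins were named if they passed over 2-fold at a mean of at least 50 CPM, belonged to a list, were among the 10 most abundant, were among the 5 least changed at 1000 CPM or more, passed at 4-fold below 50 CPM, or lay in a genomic cluster. The members, the 17 seed-family lists, the 5 lists by role and these rules were chosen with earlier results of these data known, and the ratios after their values were seen. Places come from Ensembl release 115 (WBcel235), where 144 of the 145 tested names had 1 place and let-7 was not placed. Other settings were scaling by RLE, upper quartiles or total counts, no filter, a 50 CPM minimum, robust fitting, DESeq2 1.42.0, the 2 ages alone, summed copies, and the number that ends each sample's description as a fixed term or (limma 3.58.1) a random block. Each library was also left out in turn.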

Additional observations from a re-analysis of the deposited data

How the results depend on the processing

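Of the 93 hairpins that passed between 1 and 10 days, 56 kept their call in every one of the 11 other settings in which they were tested (all 11 for 38 of them) and in all 11 fits with 1 library left out, and 37 lost it at least once. Leaving out 1 library gave 84 to 93 calls, 42 to 55 of them higher and 33 to 44 lower. The settings moved the median log2 change by -0.28 (total counts) to 0.16 (the number ending the descriptions as a fixed term). Libraries of other ages took part in this: without either 20-day library the shift was -0.15 or -0.13, and with the 2 ages alone it was -0.16, with 42 higher and 43 lower. With a minimum mean of 50 CPM, 28 hairpins were higher and 15 exceeded 2-fold; fewer hairpins were tested and the median moved by -0.22. The number ending the descriptions is 1 to 3 at 1 day and 5 to 7 at 10 days, and its meaning is not given. These 2 ages share no number, so the fit with it as a fixed term joins them only through libraries of 5 and 20 days. In that fit 77 passed, against 92 with the number as a random block. The percentage of calls that were higher was 58.1 with TMM, 44.0 with total counts and 45.2 with the 50 CPM minimum.

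Among hairpins that did not pass, those called in the opposite direction elsewhere were mir-80 (-0.26 with total counts, -0.31 with the 50 CPM minimum), mir-73 (-0.26 and -0.30), mir-790 and mir-785 (-0.29 each with that minimum), mir-5592-1 (-0.30 with that minimum) and mir-228 (0.31 with the fixed term), and the cause was not tested. mir-228 was also called lower, with total counts and the 50 CPM minimum (-0.46 to -0.42) and without replicate 2 at 20 days (-0.29). Between 5 and 10 days, higher calls numbered 26 with RLE, 65 with upper quartiles, 25 with total counts and 22 to 46 with 1 library left out. Lower calls numbered 28, 9, 29 and 11 to 24 in that order, and 20 exceeded 2-fold with upper quartiles. Both counts moved by over 1.5 times without replicate 2 at 1 day (26 higher, 21 lower), replicate 1 at 10 days (22, 21) or either library at 20 days (26, 24 each).

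On the TMM scale, the change in family share, in points, was 0.868 for let-7, -3.42 for lin-4, 10.6 for mir-35, -0.824 for mir-51, 11.5 for mir-58, -0.657 for mir-63 and 0.708 for mir-238, since TMM totals differ from library totals. No paired analysis was possible because the labels give the ages no shared replicate numbers. A count of 1 was worth up to 0.969 CPM before TMM scaling, which limits hairpins of few counts. After scaling, 2 counts of mir-2220 in replicate 1 at 10 days came to 2.21 CPM.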
